A study of Mus musculus with 4 samples.

Results

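The genes described here are 10 markers of neural progenitor cells: the filament genes Nes and Vim, the transcription factor genes Sox2, Sox9, Lhx2 and Pax6, the Musashi genes Msi1 and Msi2, and Prom1 and Fabp7. They were taken by gene symbol from a count table of 56748 genes, and each of the 10 symbols matched 1 row. Poly(A)-selected RNA of HT22, an immortalised cell line derived from mouse hippocampal neurons, was sequenced in 2 libraries of a line made to overexpress MEIS2 (oeMEIS2) and 2 libraries of a control line (Ctrl). All 4 libraries come from the HT22 background. The labels give neither the vector and promoter behind the overexpression, nor what the control line carries, nor whether a line is 1 clone or a pool. Nothing says whether the 2 libraries of each line are separate cultures, so the spread behind each p-value is that of libraries and may be technical. The series sets out to find what MEIS2 does in these cells, and for the progenitor markers the comparison shows how their RNA differs between the lines. With 1 line on each side, an effect of MEIS2 and another difference between the lines cannot be told apart.

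Neural progenitors are the dividing cells of the developing brain, and of a few adult niches such as the hippocampal dentate gyrus, from which neurons and glia arise. They are recognised by sets of genes rather than by any single gene: filament proteins of the elongated radial glial cell, SOX and homeobox factors that hold the progenitor state and regional identity, RNA-binding proteins that restrain differentiation, and surface or lipid-binding proteins. None of these genes is restricted to the nervous system, and Vim in particular is abundant in mesenchymal cells. MEIS2 is a homeodomain factor of the TALE class that works with PBX and PAX6 in parts of the developing and adult brain.

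Because the study manipulates a DNA-binding factor, the RefSeq promoters of the markers (GRCm38.p6) were searched for the MEIS core motif TGACAG on both strands, in the 250 bases before each start. The promoter table held 13 starts of 8 of the genes, with none matched for Sox9 and Msi1. The motif was present before 2 of these 13 starts (15.4%), 1 of Sox2 and 1 of Pax6, against 15.9% of all 32851 promoters. A match is a description of letters and does not show binding. Shown here are the regions of Nes, which had the largest fitted difference between the lines, of the upstream start of Pax6, a gene with counts in every library, and of Sox2 and Fabp7, which had none. Capitals mark TGACAG, and the Nes and Fabp7 regions end at the first base of an annotated exon.
Nes, chr3:87970843-87971077, plus strand: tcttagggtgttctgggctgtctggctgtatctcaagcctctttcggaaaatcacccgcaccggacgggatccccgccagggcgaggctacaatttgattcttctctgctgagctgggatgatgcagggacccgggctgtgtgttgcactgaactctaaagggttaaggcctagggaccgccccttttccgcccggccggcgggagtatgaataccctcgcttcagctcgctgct
Pax6, chr2:105668646-105668895, plus strand: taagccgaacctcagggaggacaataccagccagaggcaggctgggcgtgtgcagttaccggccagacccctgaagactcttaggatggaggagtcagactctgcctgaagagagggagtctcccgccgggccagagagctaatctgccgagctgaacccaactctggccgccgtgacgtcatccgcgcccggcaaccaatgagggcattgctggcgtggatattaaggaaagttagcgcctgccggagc
Sox2, chr3:34649745-34649994, plus strand: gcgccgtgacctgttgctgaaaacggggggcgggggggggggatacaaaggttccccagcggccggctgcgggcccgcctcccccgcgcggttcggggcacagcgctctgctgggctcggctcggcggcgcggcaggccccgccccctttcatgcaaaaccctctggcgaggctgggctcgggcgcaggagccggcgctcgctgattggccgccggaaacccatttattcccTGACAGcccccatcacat
Fabp7, chr10:57784673-57784880, plus strand: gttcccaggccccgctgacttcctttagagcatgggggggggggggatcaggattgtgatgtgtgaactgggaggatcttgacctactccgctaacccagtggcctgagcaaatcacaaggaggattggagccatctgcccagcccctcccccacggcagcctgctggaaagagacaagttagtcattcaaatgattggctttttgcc
The only TGACAG among these 4 regions lies 18 to 13 bases before the start of Sox2, a gene without a read, on the plus strand. The other match, on the minus strand, lies before a downstream Pax6 start that is not shown, and Pax6 had counts in every library. The motif was missing before Nes. The full 250 bases held 15 CpG sites before Nes, 15 before this Pax6 start, 27 before Sox2 and 4 before Fabp7, against a median of 6 over all promoters. Among these 4 chosen regions, Sox2 had a CpG-rich promoter and no counts, while Nes and Pax6 had counts with fewer CpG sites. The other starts were mixed. Msi2 (29 or 30 sites), Lhx2 (24 and 25) and Vim (8) had counts, while Prom1 (3 and 9) had none. No relation of CpG sites to counts is drawn from them.

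Total counts were between 15014017 and 16903967 per library, and 12802 genes had enough counts to be tested. Meis2 itself, the gene made to be overexpressed, stood at 332.0 and 332.1 CPM (counts relative to the library total, after TMM scaling of the libraries) in oeMEIS2, against 16.0 and 19.6 CPM in Ctrl. By edgeR's quasi-likelihood test with Benjamini-Hochberg adjustment it was the 1 gene past the threshold of 0.05. Such a count does not separate introduced from endogenous Meis2. The libraries of a line differed from each other by more than sampling noise, with a scaled median absolute deviation of log2 differences over genes of 0.777 between the oeMEIS2 libraries and 0.477 between the Ctrl libraries. Replicate 2 of oeMEIS2 stood apart from the other libraries on many genes. Across the tested genes, which share these 4 libraries, the log2 fold change between the lines ran up with gene length (Spearman rho 0.488) and down with GC content (rho -0.421). The values of the markers are therefore set beside those obtained with these trends removed.

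Of the 10 markers, 7 had counts in every library and passed the filter for testing, and 3, Sox2, Prom1 and Fabp7, had 0 counts in all 4 libraries. Sox2 encodes the SOX factor that maintains neural stem cells, Prom1 the pentaspan membrane protein CD133 used to isolate them, and Fabp7 the brain fatty acid binding protein of radial glia. No gene was near the filter, since the lowest tested marker, Msi1, had 45 counts in its poorest library. A count of 0 allows up to 3 counts, which in these libraries is worth 0.179 to 0.195 CPM, or, per kilobase of gene length, at most 0.095 RPKM (CPM divided by the gene length in kilobases) for Sox2, 0.0272 RPKM for Prom1 and 0.156 RPKM for Fabp7. These limits cover counting error only. No fold change can be given for these 3 genes, and none was detectable in either line at this depth. The long noncoding gene Sox2ot, whose span contains Sox2, also had 0 counts in all 4 libraries.

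Per gene length, the 7 markers with counts covered a wide range of levels in these cells. Averaged over the 4 libraries, Vim stood at 641.3 RPKM, above 99.5% of the tested genes, and Nes at 41.9 RPKM, at the 88.3 percentile. Sox9 followed at 4.88 RPKM, Lhx2 at 4.28, Pax6 at 2.78, Msi2 at 2.55 and Msi1 at 0.61 RPKM, which placed them between the 46.5 and the 11.5 percentile. The steps from Vim to Nes, from Nes to Sox9 and from Msi2 to Msi1 held in 4 of 4 libraries, with no overlap in either line. Sox9 and Lhx2 overlapped in both lines, as did Pax6 and Msi2, and in each of these pairs the order held in 3 of 4 libraries. Lhx2 lay above Pax6 in 4 of 4 libraries, but their ranges overlapped in Ctrl. The filament genes were thus far above the transcription factor and Musashi genes in both lines.

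**Figure D1:**
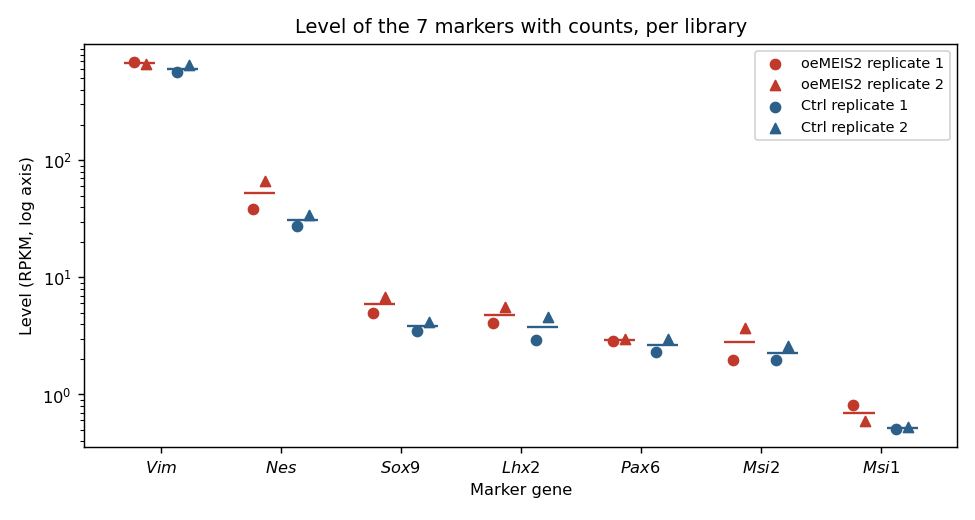
Level of the 7 markers with counts in RPKM on a log axis, for each library; horizontal bars are the mean of the 2 libraries of a line, oeMEIS2 in red left of Ctrl in blue. Vim and Nes stand above the rest, from 641.3 and 41.9 RPKM on average down to 0.61 RPKM for Msi1. The lines differ far less than this range, but the neighbours Sox9 and Lhx2, and Pax6 and Msi2, differ less on average than the lines do for Nes.

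Both filament genes had higher fitted levels in oeMEIS2, and neither passed the test. Nes (ENSMUSG00000004891; chromosome 3, 87878385 to 87887758, plus strand, by the positions of the count table, which names no genome build) encodes nestin, the intermediate filament protein of neural stem cells that is lost as neurons mature. The positions of the count table do not match the GRCm38.p6 positions given for the promoters and cannot be compared with them. Nes had 247.1 and 430.8 CPM in oeMEIS2 replicates 1 and 2, against 175.8 and 220.7 CPM in Ctrl replicates 1 and 2. Both oeMEIS2 libraries lay above both Ctrl libraries, but oeMEIS2 replicate 1 was close to Ctrl replicate 2, and oeMEIS2 replicate 2 was well above all others. The mean was 338.9 ± 129.9 CPM in oeMEIS2 and 198.2 ± 31.7 CPM in Ctrl (SD, n = 2 each), a fitted 1.71-fold difference. On the log2 scale this was 0.77 (SE 0.34), at an unadjusted p of 0.0386 and an adjusted p of 0.448 by edgeR. The log2 fold change was 0.28 without oeMEIS2 replicate 2, and 1.11 with an adjusted p of 0.0281 without oeMEIS2 replicate 1, where the spread comes from the Ctrl libraries alone. Removing the length trend gave 0.51 and removing the length and GC trends 0.77.

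Vim (ENSMUSG00000026728; chromosome 2, 13578738 to 13587637, plus strand) encodes vimentin, the filament protein that assembles with nestin in progenitors and forms the main filament network of mesenchymal cells. It took 0.324% and 0.352% of all counts in oeMEIS2 replicates 1 and 2, against 0.244% and 0.304% in Ctrl replicates 1 and 2. After scaling, it stood at 3256 and 3154 CPM in oeMEIS2, against 2684 and 3072 CPM in Ctrl. The ranges did not overlap, yet the lowest oeMEIS2 library and the highest Ctrl library were only 0.04 apart on the log2 scale. The log2 fold change was 0.16 (SE 0.34, adjusted p 0.858 in edgeR's test), and -0.01 with the length and GC trends removed. Without Ctrl replicate 1, the library with the lowest Vim level, it was 0.05. Vim, the most abundant of the markers, was also the one whose level per library varied least, with 0.05 on the log2 scale between the oeMEIS2 libraries and 0.19 between the Ctrl libraries.

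Among the transcription factor genes, Sox9 had the largest fitted difference, and Lhx2 and Pax6 overlapped between the lines. Sox9 (ENSMUSG00000000567; chromosome 11, 112673050 to 112678586, plus strand) encodes a SOX factor of neural stem cells and astrocytes that also directs cartilage formation. It had 20.7 and 28.3 CPM in oeMEIS2, against 14.5 and 17.3 CPM in Ctrl. The lines did not overlap, and the gap between the nearest libraries was 0.26 on the log2 scale, equal to the gap between the Ctrl libraries themselves. The mean of 24.5 ± 5.35 CPM in oeMEIS2 stood 1.54-fold above the 15.9 ± 2.00 CPM in Ctrl (SD, n = 2 each), and edgeR's test gave a log2 fold change of 0.62 (SE 0.37) at an adjusted p of 0.586. Its fold change kept its sign in all 14 alternatives, from 0.34 without oeMEIS2 replicate 2 to 0.82 without oeMEIS2 replicate 1, and was 0.52 with the length and GC trends removed.

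Lhx2 (ENSMUSG00000000247; chromosome 2, 38229293 to 38259745, plus strand) encodes a LIM homeodomain factor that specifies the cortex and hippocampus and holds progenitors undifferentiated. It measured 17.8 and 24.4 CPM in oeMEIS2, against 12.7 and 20.2 CPM in Ctrl, so that Ctrl replicate 2 exceeded oeMEIS2 replicate 1. The log2 fold change of 0.36 (SE 0.39, adjusted p 0.712 in edgeR's test) was smaller than the 0.66 between the Ctrl libraries. It was 0.06 without Ctrl replicate 1 and 0.08 without oeMEIS2 replicate 2, 0.72 without Ctrl replicate 2, and 0.59 with the length and GC trends removed. The libraries of Lhx2 thus differed within a line by as much as the lines differed from each other.

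Pax6 (ENSMUSG00000027168; chromosome 2, 105499245 to 105527709, plus strand) encodes a paired homeodomain factor of cortical radial glia and a known partner of MEIS2 in olfactory bulb neurogenesis in mouse. It had 33.6 and 34.7 CPM in oeMEIS2, against 27.2 and 34.5 CPM in Ctrl. The oeMEIS2 libraries and Ctrl replicate 2 were alike and Ctrl replicate 1 was lower, so the lines overlapped. The log2 fold change was 0.15 (SE 0.34, adjusted p 0.867 in edgeR's test), -0.03 without Ctrl replicate 1, -0.41 with the length trend removed and -0.44 (SE 0.20, adjusted p 0.397) with the length and GC trends removed. At 11694 bases, Pax6 is the longest of the markers, against a median of 4219 bases over the tested genes. Its antisense neighbour Pax6os1 had 9 and 6 counts in oeMEIS2 and 5 and 14 counts in Ctrl, beside 417 to 582 counts of Pax6. Whether the counting separated strands is not stated.

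The Musashi genes, which encode RNA-binding proteins that repress translation of mRNAs such as that of Numb, had the lowest mean levels per length of the markers with counts, although Msi2 lay above Pax6 in oeMEIS2 replicate 2. Msi1 (ENSMUSG00000054256; chromosome 5, 115567658 to 115593757, plus strand) is the member most tied to neural stem cells. It had 73 and 58 counts, or 4.68 and 3.46 CPM, in oeMEIS2, against 45 and 50 counts, or 2.93 and 3.08 CPM, in Ctrl. It was the only tested marker with oeMEIS2 replicate 1 clearly above oeMEIS2 replicate 2, by 0.42 on the log2 scale, and the lines did not overlap. The log2 fold change was 0.43 (SE 0.46, adjusted p 0.706 in edgeR's test), 0.19 without oeMEIS2 replicate 1 and 0.51 with the length and GC trends removed.

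Msi2 (ENSMUSG00000069769; chromosome 11, 88230208 to 88609339, minus strand), the more widely expressed paralogue, had 20.6 and 38.1 CPM in oeMEIS2, against 20.4 and 27.0 CPM in Ctrl. Replicate 1 of each line was at the same level and replicate 2 of each line was higher, so the lines overlapped. The 0.89 between the oeMEIS2 libraries and the 0.40 between the Ctrl libraries, on the log2 scale, both exceeded the log2 fold change of 0.31 between the lines (SE 0.39, adjusted p 0.749 in edgeR's test). It became -0.24 without oeMEIS2 replicate 2, -0.27 with the length trend removed and -0.34 with the length and GC trends removed. Msi2 is 10405 bases long. The GENCODE M21 transcripts were searched for copies of the 10 markers, Msi1 and Msi2 against each other included. A copy needed a match of 150 bases or more, with an identity of 90% or higher, over at least 50% of its transcript. By this rule 0 were found, and matches over a smaller part of a transcript were not counted.

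Over the list, 0 of the 7 tested markers were past the threshold of edgeR's test in either direction, against 0.00781% of all tested genes higher and 0% lower. At an unadjusted p under 0.05, 1 marker, Nes, was higher, against 9.79% of tested genes, and 0 were lower, against 0.414%. DESeq2 called 0 of the 6 to which it gave an adjusted p (all but Msi1), where it called 0.848% of genes higher and 0.0116% lower. The fitted fold change was above 0 for 7 of the 7 tested markers, against 50.9% of tested genes, and below 0 for none, against 49.1%. Their median log2 fold change was 0.36, and that of all tested genes 0.01. Libraries did not overlap between the lines for 4 markers (Nes, Vim, Sox9 and Msi1), all higher in oeMEIS2, against 22.6% of tested genes higher and 19.1% lower. With the length and GC trends removed, 4 of 7 had a fold change above 0 (Nes, Sox9, Msi1 and Lhx2), against 44.9% of tested genes, and 3 of 7 below 0, against 55.1%. With the trends kept, the number above 0 was 6 of 7 without oeMEIS2 replicate 2 and 6 of 7 without Ctrl replicate 1, at medians of 0.14 and 0.11. With so few genes, selected with earlier results of these data known, these counts describe the list and are not a test of it.

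**Figure D2:**
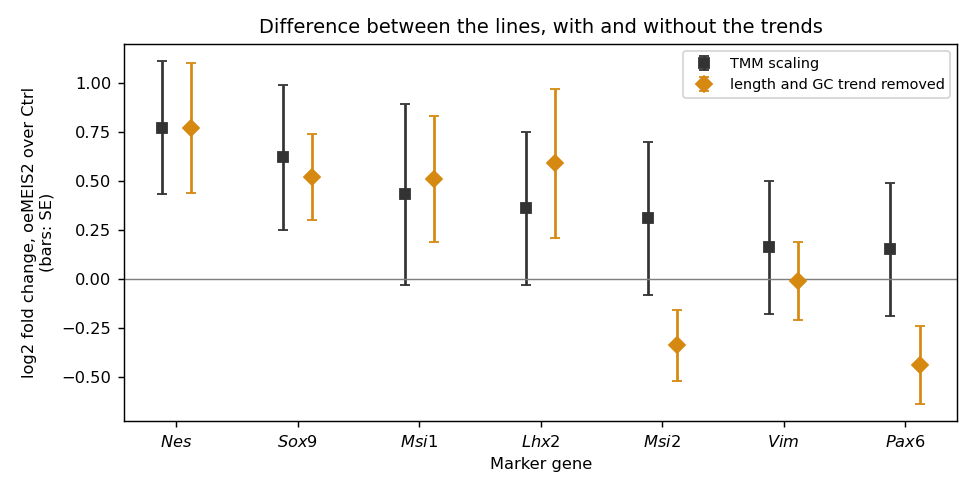
Log2 fold change of oeMEIS2 over Ctrl for the 7 tested markers, with bars of 1 SE, from TMM-scaled counts (squares) and after removal of the trends of each library on length and GC content (diamonds). Nes keeps 0.77 in both, while Msi2 and Pax6, the longest of the 7, stand at 0.31 and 0.15 in the first and at -0.34 and -0.44 in the second.

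The 7 tested markers were all lowest in Ctrl replicate 1, Msi2 by a narrow margin. The share of all tested genes that were lowest in that library was not determined. Nes, Sox9, Lhx2, Msi2 and, by a narrow margin, Pax6 were highest in oeMEIS2 replicate 2, while Vim and Msi1 were highest in oeMEIS2 replicate 1. For Nes these libraries stood 0.76 above and 0.53 below the gene's mean log2 level, and for Sox9 0.53 above and 0.43 below. The median deviation of the 7 markers was 0.05 and 0.42 in oeMEIS2 replicates 1 and 2, and -0.33 and 0.02 in Ctrl replicates 1 and 2. Over all tested genes it was 0.03 and 0.04 in oeMEIS2, and -0.07 and 0.04 in Ctrl. The shape was not particular to the markers, since the list of other progenitor genes had 0 and 0.43 in oeMEIS2, and -0.42 and -0.05 in Ctrl. Replicate 1 of oeMEIS2 minus replicate 2 of Ctrl, on the log2 scale, was 0.58 for Msi1, 0.26 for Sox9, 0.16 for Nes and 0.08 for Vim, and -0.04 for Pax6, -0.18 for Lhx2 and -0.39 for Msi2.

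**Figure D3:**
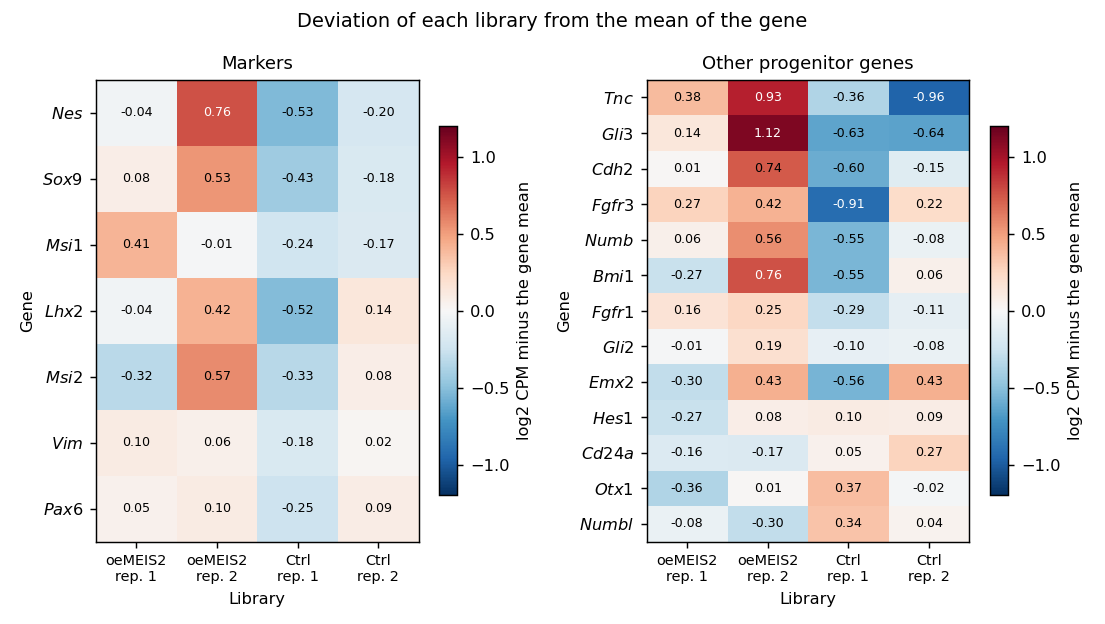
Deviation of log2 CPM from the mean of each gene, by library, for the 7 tested markers and for 13 of the 14 tested genes of the list of other progenitor genes; red is above and blue below the mean of the gene. Replicate 2 of oeMEIS2 is the highest library for most rows, up to 0.76 for Nes and 1.12 for Gli3.

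**Figure D4:**
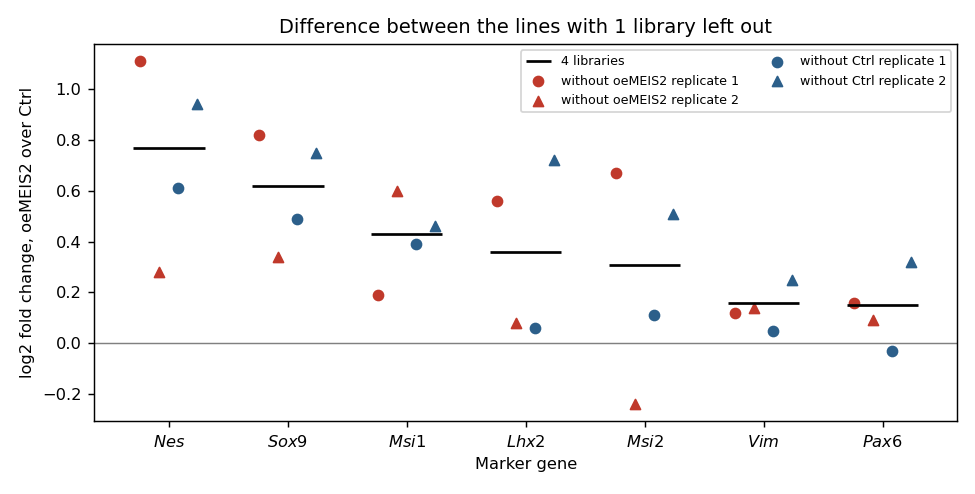
Log2 fold change of oeMEIS2 over Ctrl for each tested marker with 4 libraries (black bar) and with each library left out in turn (red for an oeMEIS2 library, blue for a Ctrl library). For Nes the values run from 0.28 without oeMEIS2 replicate 2 to 1.11 without oeMEIS2 replicate 1, and for Msi2 from -0.24 to 0.67 with the same libraries left out.

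Other genes of neural stem cells, radial glia and intermediate progenitors were likewise present only in part. Of 30 such genes, 12 (40%) had 0 counts in all 4 libraries, against 62% of all genes in the table. Among the 12 were Sox1 and Sox3, the closest relatives of Sox2, the Notch target Hes5 and the proneural gene Neurog2. Of the 14 that were tested, 0 passed in either direction, and 3 were higher and 0 lower at an unadjusted p under 0.05, against 9.79% and 0.414% of all tested genes. Fitted levels were higher for 10 and lower for 4, against 50.9% and 49.1% of all tested genes. The median log2 fold change was 0.48, or 0.18 without oeMEIS2 replicate 2 and 0.26 with the length and GC trends removed. Fgfr1, a fibroblast growth factor receptor and among the most abundant per length, had 112.7 and 119.8 CPM in oeMEIS2 and 82.4 and 93.6 CPM in Ctrl (log2 fold change 0.40, SE 0.30, adjusted p 0.612 in edgeR's test).

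Gli3 and Tnc, chosen from that list for low p-values after these were seen, were both higher in oeMEIS2 without overlap. Gli3, a transcription factor of the Hedgehog pathway that patterns the forebrain, had 24.0 and 47.4 CPM in oeMEIS2, against 14.0 and 13.9 CPM in Ctrl. Its log2 fold change of 1.36 (SE 0.40, adjusted p 0.277 in edgeR's test) was 0.74 without oeMEIS2 replicate 2 and 0.78 with the length and GC trends removed. Tnc, a matrix glycoprotein of the stem cell niche, rested on 37 and 59 counts in oeMEIS2 against 21 and 14 counts in Ctrl (log2 fold change 1.40, SE 0.55, adjusted p 0.368 in edgeR's test). Numb, whose mRNA Msi1 is known to bind, had 16.3 and 23.1 CPM in oeMEIS2 and 10.6 and 14.8 CPM in Ctrl (log2 fold change 0.63, SE 0.39, adjusted p 0.596). Its relative Numbl lay on the other side, at 50.3 and 43.3 CPM in oeMEIS2 and 67.2 and 54.7 CPM in Ctrl (log2 fold change -0.38, SE 0.32, adjusted p 0.645). Hes1, the Notch target that keeps progenitors cycling, stood at 4.49 and 5.78 CPM in oeMEIS2 and at 5.87 and 5.79 CPM in Ctrl.

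The gene families of the markers were also only partly present. Of 13 other intermediate filament genes, 5 were tested and 0 passed. The neuronal filament genes Ina, Nefl and Nefm had 0 counts in all libraries, while the lamin genes were abundant. Lmna, of the nuclear lamina, had 1705 and 1037 CPM in oeMEIS2 and 2112 and 1582 CPM in Ctrl (log2 fold change -0.43, SE 0.36, adjusted p 0.643 in edgeR's test), and Lmnb1 had 97.8 and 122.5 CPM in oeMEIS2 and 65.0 and 78.5 CPM in Ctrl (0.62, SE 0.31, adjusted p 0.519). Synm, chosen after its value was seen, encodes synemin, a large filament protein that assembles with vimentin, and had 59 and 175 counts in oeMEIS2 against 11 and 41 counts in Ctrl (log2 fold change 2.12, SE 0.63, adjusted p 0.277 in edgeR's test, 1.18 without oeMEIS2 replicate 2 and 1.79 with the length and GC trends removed).

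Of 15 other SOX genes, 8 (53.3%) had 0 counts in all libraries, against 62% of all genes in the table. Of the rest, 3 were tested and 0 passed. Sox12 had 29.4 and 24.4 CPM in oeMEIS2, below the 40.5 and 33.0 CPM in Ctrl (log2 fold change -0.45, SE 0.35, adjusted p 0.619 in edgeR's test). Sox4, of the same SOXC group, had 26.2 and 41.7 CPM in oeMEIS2, above the 14.3 and 18.3 CPM in Ctrl (log2 fold change 1.06, SE 0.38, adjusted p 0.313). Of 18 other LIM and paired homeobox genes and cofactors, 7 were tested and 0 passed. The LIM cofactor Ldb1, which bridges LHX2 to its partners, had 184.0 and 136.8 CPM in oeMEIS2 and 181.5 and 166.1 CPM in Ctrl, and Lmo4, which competes for Ldb1, had 29.5 and 35.5 CPM in oeMEIS2 and 24.1 and 32.9 CPM in Ctrl. Both overlapped between the lines. Among 10 relatives of Fabp7, only Fabp5 was tested, at 154.0 and 93.4 CPM in oeMEIS2 and 170.8 and 135.2 CPM in Ctrl (log2 fold change -0.31, SE 0.33, adjusted p 0.707). Crabp2, a retinoic acid binding protein and the next in level, had 7 and 1 counts in oeMEIS2 and 9 and 8 counts in Ctrl.

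The HT22 label was set beside markers of other cell types, since Nes, Vim and Sox9 are not specific to progenitors. Of 17 neuron markers, 10 (58.8%) had 0 counts in all libraries, close to the 62% of all genes in the table. Among the 10 were the defining genes Rbfox3, Dcx, Snap25 and Neurod1. Those present were led by Tubb3, a neuronal tubulin, with 17.1 and 11.9 CPM in oeMEIS2 and 22.2 and 16.2 CPM in Ctrl, and Map2, a dendritic microtubule protein, with 8.27 and 18.2 CPM in oeMEIS2 and 6.65 and 7.20 CPM in Ctrl. Their log2 fold changes were -0.40 and 0.93, or -0.02 and 0.05 with the length and GC trends removed. Of the 17 neuron markers, 5 were tested and 0 passed, with 1 fitted higher and 4 lower, against 50.9% and 49.1% of all tested genes. The median log2 fold change of the 5 was -0.40. With the length and GC trends removed it was -0.30, with 1 above 0 and 4 below, against 44.9% and 55.1% of all tested genes. The summed level of the neuron list was 29.5 and 34.0 CPM in oeMEIS2 and 35.1 and 27.5 CPM in Ctrl. Of 13 fibroblast markers, 8 were tested and 0 passed. The summed level of the list, with the trends kept, was 1479 and 1793 CPM in oeMEIS2 and 1184 and 1194 CPM in Ctrl, which does not overlap. The median log2 fold change of the 8 was 0.20, with 6 above 0 and 2 below, against 50.9% and 49.1% of all tested genes. With the length trend removed it was -0.08, with 4 above 0, against 45.8% of all tested genes, and 4 below. With the length and GC trends removed it was 0.19, with 6 above 0 and 2 below, against 44.9% and 55.1%. The leading genes per length were S100a4, a calcium-binding protein, with 91.9 and 33.6 CPM in oeMEIS2 and 93.2 and 88.0 CPM in Ctrl, and fibronectin, Fn1, with 664.5 and 847.4 CPM in oeMEIS2 and 410.5 and 474.9 CPM in Ctrl (log2 fold change 0.77, SE 0.32, adjusted p 0.403 in edgeR's test). The value of Fn1 was 0.18 with the length trend removed and 0.33 with the length and GC trends removed. The fibroblast markers Lum and Thy1 were at 0 in all libraries. Summed over the 10 progenitor markers, the level was 3600 and 3714 CPM in oeMEIS2 and 2937 and 3395 CPM in Ctrl, nearly all of it from Vim. Fewer cells of a type and less RNA per cell cannot be told apart in such bulk libraries, and the part of the fibroblast genes in the result of Vim and Nes was not tested.

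The mRNAs encoded by mitochondrial DNA, whose share can reflect RNA quality, ran higher in oeMEIS2 replicate 2 than in the other libraries. Their sum was 9235 and 11390 CPM in oeMEIS2 and 7215 and 9204 CPM in Ctrl. Of the 12 tested genes, 0 were past the threshold. A higher fitted level was found for 10 and a lower one for 2, against 50.9% and 49.1% of all tested genes. Their median log2 fold change was 0.63, against 0.01 over all tested genes, and the list's median was 0.14 without oeMEIS2 replicate 2. With all libraries, it was 0.93 with the length trend removed and 0.58 with the length and GC trends removed, against -0.05 over all tested genes in both. With all libraries and the trends kept, 3 of the 12 were higher and 0 lower at an unadjusted p under 0.05 in edgeR's test, against 9.79% and 0.414% of all tested genes. The most abundant, mt-Co1 and mt-Nd1, had log2 fold changes of 0.29 (SE 0.36) and -0.20 (SE 0.33), and the 3 with the lowest p-values, chosen after their values were seen, were mt-Nd5 at 1.12 (SE 0.36), mt-Nd4 at 1.03 (SE 0.35) and mt-Nd6 at 0.82 (SE 0.31). Their part in the results of the markers was not tested.

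For each tested marker with at least 10 CPM, the genes with the nearest profile over the 4 libraries were sought among 8541 named genes, as the smallest Euclidean distance between log2 levels centred on the gene's mean. For Nes these were Fnbp4 and Snai2, at distances of 0.017 and 0.044 on the log2 scale. Vim lay nearest to Armh3 (0.013) and Tmem248 (0.032), and Sox9 to Kif13b (0.052) and Grsf1 (0.061). Those nearest to Msi2 were Mtpn (0.019) and Cnot2 (0.048), those nearest to Lhx2 were Srbd1 (0.033) and Slc30a9 (0.052), and those nearest to Pax6 were Cerk (0.020) and Ubtf (0.026). None of the 12 genes was near more than 1 marker by this rule, and over 4 points of shared libraries such closeness is a description only.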

How the data were processed

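Per the labels' protocols, RNA of 2 oeMEIS2 and 2 Ctrl libraries of HT22 cells was taken up in TRIzol, selected on poly(A) and sequenced. The authors deposited 1 table of raw read counts per gene, which also gives gene lengths and positions per the file headers. The submitters' processing notes name DESeq2 without a version; aligner, counting program, strand setting, annotation and build are not stated in them.

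Counts were tested in R 4.3.3 with edgeR 4.0.16 (filterByExpr, TMM, group-only design, quasi-likelihood F test, Benjamini-Hochberg over the 12802 genes tested), a procedure first tested on simulated data. The SE is the log2 fold change over the square root of F. CPM uses TMM-scaled library sizes, and log2 levels a prior count of 2. Alternatives were other scalings and filters, DESeq2 1.42.0, limma-voom (limma 3.58.1), a threshold of 0.01, the replicate number as a block, each library left out, and offsets that remove spline trends on length, or on length and the GC content of the longest GENCODE M21 transcript (known for 98.9% of tested genes). Copies were sought with BLAST+ 2.17.0.

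The markers and lists were chosen with earlier results of these data known. Named genes are the 10 markers, Meis2, the 2 genes of each list with the highest level per length, defining genes at 0 and the genes nearest in profile. Numb, Numbl and Hes1 were named for their roles, after their values were seen. Gli3, Tnc, Synm, Pdgfra, mt-Nd5, mt-Nd4 and mt-Nd6 were also named after their values or p-values were seen, and none of them passed the threshold. Sox2ot and Pax6os1 were named because they overlap a marker. Values of some single list members are left out here.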

Additional observations from a re-analysis of the deposited data

How the results depend on the processing

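Nes, Sox9, Msi1 and Lhx2 kept a higher fitted level in oeMEIS2 in every alternative that gave a value, and Msi1 gave none under the filter of 5 CPM in 2 libraries. The sign changed for Msi2 (-0.27 with the length trend removed, -0.34 with the length and GC trends removed, and a range of -0.24 to 0.67 with a library left out), for Pax6 (-0.41, -0.44, and -0.03 to 0.32 with a library left out) and for Vim (-0.01 with the length and GC trends removed). The cause was not tested. The count of markers past the threshold was 0 or 1 with a library left out, and the 1 was Nes. The median log2 fold change of the tested markers ranged from 0.11 to 0.56 with a library left out, against 0.36 with all 4. Over all genes, the number past the threshold was 1, but 271 without a filter, 74 in DESeq2, 0 with the length and GC trends removed (1669 at an unadjusted p under 0.05; Meis2, the gene lost, was then 3.64 higher on the log2 scale, with SE 0.33 and an adjusted p of 0.0862 in edgeR, against 4.22) and from 1 to 2411 with a library left out, where the fit has fewer residual degrees of freedom.

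The replicate numbers are shared between the lines, but nothing in the labels says that a number marks a shared culture or day, so the fit without a block was kept. Replicate 2 minus replicate 1 correlated between the lines (r = 0.529 across genes, which are not independent replicates). With the replicate number as a block, 2795 genes and 1 marker passed, Nes, at a log2 fold change of 0.73 (adjusted p 0.00337, edgeR). Scaling by library size alone moved the median of all genes to 0.17 and that of the tested markers to 0.52. The depth limits the absent markers to below 3 counts a library and leaves Msi1, with 45 to 73 counts, the least precise of those tested.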

Other observations

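Markers of glial, immune and vascular cells were mostly at or near 0, as were most genes in the table. The share at 0 counts in all libraries was 22.2% for the astrocyte list and 33.3% for the oligodendrocyte-lineage list. It was 57.1% for the microglia list and 33.3% for the endothelial list, against 62% of all genes in the table. Of 9 astrocyte markers, 3 were tested, led per length by Glul, glutamine synthetase, with 49.3 and 37.3 CPM in oeMEIS2 and 56.1 and 45.7 CPM in Ctrl, and by the gap junction gene Gja1, with 44.9 and 65.8 CPM in oeMEIS2 and 36.1 and 42.2 CPM in Ctrl. Aqp4 and Gjb6 were at 0 in all libraries, and Gfap had at most 2 counts. Of 9 oligodendrocyte-lineage markers, 3 were tested, led by the proteoglycan gene Cspg4, with 174.5 and 151.7 CPM in oeMEIS2 and 150.7 and 151.3 CPM in Ctrl, and by Cnp, with 21.7 and 12.5 CPM in oeMEIS2 and 29.3 and 20.2 CPM in Ctrl, while Olig1, Olig2 and Sox10 were at 0. Pdgfra, chosen after its value was seen, had 14.9 and 20.0 CPM in oeMEIS2 and 7.36 and 8.86 CPM in Ctrl (log2 fold change 1.10, SE 0.40, adjusted p 0.314 in edgeR's test). Its log2 fold change was 0.59 with the length trend removed and 0.55 with the length and GC trends removed.

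Of 7 microglia markers, Tmem119 was the only one tested, with 26.6 and 19.0 CPM in oeMEIS2 and 34.9 and 25.2 CPM in Ctrl. Aif1 had at most 6 counts, and Cx3cr1, Ptprc, P2ry12 and Itgam were at 0. Of 6 endothelial markers, Flt1 was the only one tested, with 54 and 125 counts in oeMEIS2 and 20 and 40 counts in Ctrl (log2 fold change 1.53, SE 0.54, adjusted p 0.308 in edgeR's test). The value was 0.84 without oeMEIS2 replicate 2 and 0.85 with the length and GC trends removed. Pecam1 had 3 and 3 counts in oeMEIS2 and 1 and 5 counts in Ctrl, and Tek and Cldn5 were at 0. In these 4 lists 0 genes passed the threshold.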
